A study of Mus musculus with 8 samples.

Results

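The genes described here supply amino acids and load them onto transfer RNAs in mouse macrophages: 20 cytosolic aminoacyl-tRNA synthetases, 8 enzymes of amino acid synthesis and one-carbon metabolism, and 7 plasma membrane amino acid transporters. They were listed by gene name, with earlier results of these data known, and all 35 were found among the 54532 genes of the deposited expression table. Of these genes, 34 passed the filter on low values, which asked that 2 or more of the 8 libraries reach an FPKM (fragments scaled by gene length and by library) of 1. The proline synthesis enzyme Pycr1 did not pass it.

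The RNA was poly(A)-selected and came from bone marrow derived macrophages, phagocytes grown in culture from marrow. The 4 groups were cells given spermine with 3 h of IFN-β, PBS with 3 h of IFN-β, spermine at 0 h and PBS at 0 h, with 2 libraries in each. Spermine is a polyamine, positively charged and also made by cells, PBS is the salt buffer used as its control, and IFN-β is an antiviral cytokine of the type I interferon family. Neither the doses, the length of the spermine treatment nor the strain and age of the mice is given in the labels. There was no 3 h group lacking IFN-β, so a difference between 3 h and 0 h also holds whatever those hours alone did. Whether the 2 libraries of a group are separate animals or cultures is not stated, and the p-values rest on a spread that may be technical. The series text names DMSO where the labels name PBS, and the extraction protocol names blood where the labels name macrophages.

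An aminoacyl-tRNA synthetase joins one kind of amino acid to its transfer RNA, which then delivers it to the ribosome. When amino acids run short, uncharged transfer RNAs activate the kinase GCN2 (Eif2ak4), and the transcription factor ATF4 is then made in larger amounts. ATF4 is known to switch on many synthetases, asparagine synthetase, enzymes of the serine and one-carbon pathways, and amino acid transporters, and other stresses reach ATF4 through other kinases. Macrophages also use several of these genes in their inflammatory response, and Wars, the tryptophan synthetase, has long been known as an interferon-induced gene.

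Depth was 15723437 to 17744844 rebuilt reads a library, and 11421 genes were tested with limma on log2(FPKM + 1). All 8 macrophage markers looked for were present, with a summed level of 11203.7 to 13806.8 FPKM, while Cd3e, Cd3d and Cd3g of T cells, Ly6g of neutrophils and Hba-a1 and Hbb-bs of red cells were listed at 0 in every library. The T cell list of 6 genes had a summed level of 1.47 and 1.61 FPKM in spermine at 3 h and 4.34 and 4.84 in PBS at 3 h, against 0.183 to 0.554 in the 4 libraries at 0 h, nearly all of it from Lck. The dendritic cell list of 5 genes had a summed level of 5.72 and 6.62 FPKM in spermine at 3 h and 3.28 and 4.65 in PBS at 3 h, against 0.411 to 1.25 at 0 h, nearly all of it from Xcr1. Fewer cells of a type and less RNA per cell cannot be told apart in such bulk samples.

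Together the 35 genes took 0.301% and 0.290% of the reads in spermine at 3 h and 0.217% and 0.224% in PBS at 3 h. At 0 h they took 0.336% in both spermine libraries, against 0.249% and 0.247% in PBS. The spermine libraries therefore lay above the PBS libraries at both times without overlap, and the transporters made up most of the gap: 0.140% and 0.129% against 0.0598% and 0.0643% of the reads at 3 h, and 0.144% and 0.155% against 0.0765% and 0.0776% at 0 h. Most transporter reads came from Slc3a2, with 6605 to 17526 a library, and Slc38a2, with 1506 to 6810. No other transporter among the members exceeded 972 reads in a library. In PBS at 0 h the members spanned a wide range of levels per length. Slc3a2, the heavy chain shared by several amino acid exchangers, averaged 95.3 ± 3.06 FPKM (SD, n = 2), followed by Nars, the synthetase for asparagine, at 63.7 ± 1.86, with a gap to the glycine synthetase Gars at 20.7 ± 0.443 and to the glutamine importer Slc38a2 at 19.0 ± 0.546. From Hars at 16.9 ± 0.307 downward, many neighbours in the order lay within each other's spread. The lowest were the phosphoserine phosphatase Psph at 1.15 ± 0.179, the neutral amino acid transporter Slc1a4 at 0.500 ± 0.0786 and Pycr1 at 0.127 ± 0.0720.

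**Figure D1:**
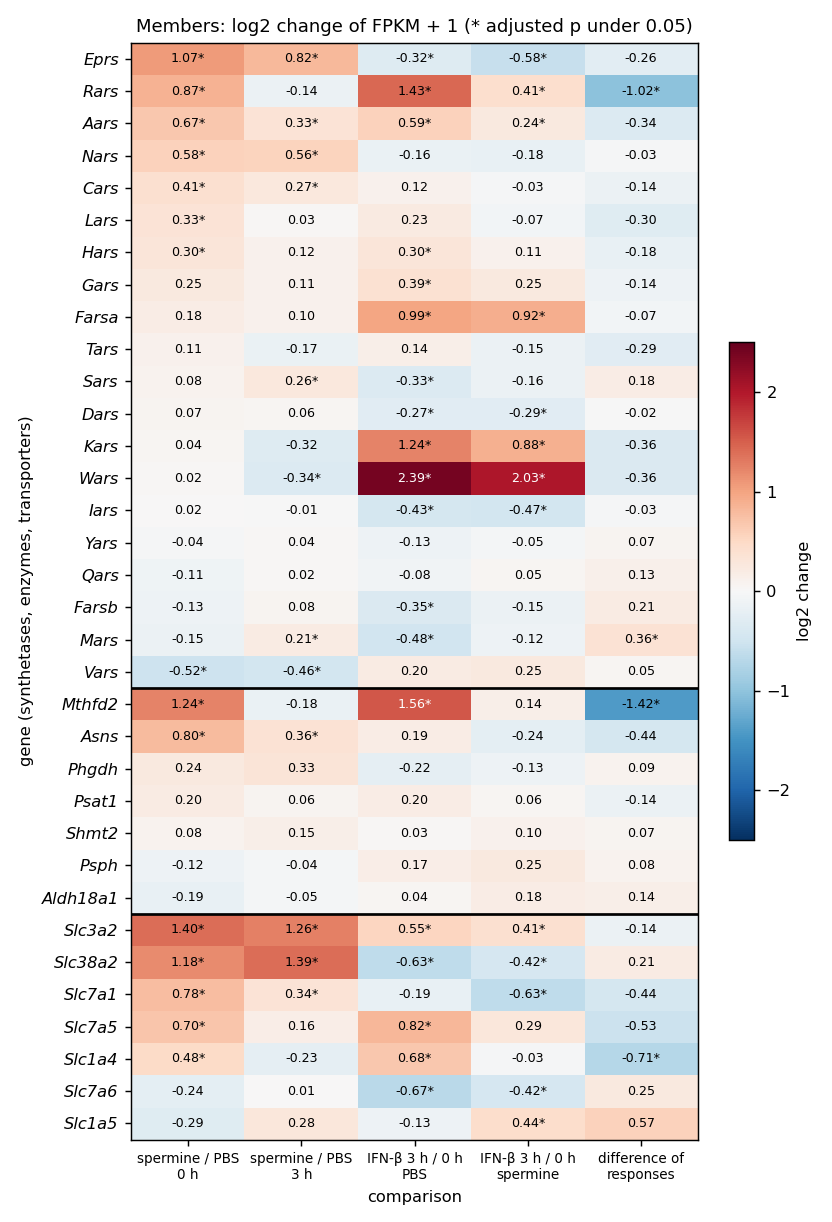
Log2 change of FPKM + 1 for each of the 34 tested members (rows, by role) in the 5 comparisons (columns); red is higher and blue lower in the first-named group, and an asterisk marks an adjusted p under 0.05. The spermine columns are mostly red where they carry an asterisk (14 of 15 calls at 0 h), while the IFN-β columns hold both colours.

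With spermine, 3 of the 7 amino acid transporters, 4 of the 20 synthetases and asparagine synthetase passed as higher than with PBS both before and after IFN-β. At 0 h 14 of the 34 tested members were higher and 1 was lower, where 22.0% of all tested genes were higher and 19.2% lower, and the members' median change was 0.19, against 0.01 over all genes. At 3 h 10 were higher and 2 lower, where 19.9% of all tested genes were higher and 20.6% lower, with medians of 0.09 for the members and -0.00 for all genes. The members Aars, Asns, Cars, Eprs, Nars, Slc38a2, Slc3a2 and Slc7a1 passed as higher at both times. The deposited scale holds the median gene steady. Rescaling each library to the same FPKM sum (TPM) moved the median of all genes by -0.34 at 0 h and -0.20 at 3 h, and the members' split became 11 higher and 12 lower at 0 h and 4 higher and 5 lower at 3 h. With quantile normalization it was 13 higher and 4 lower at 0 h and 6 higher and 3 lower at 3 h.

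Among the synthetases, spermine raised 7 of 20 at 0 h and lowered 1, and raised 6 and lowered 2 at 3 h. Over all tested genes the shares were 22.0% higher and 19.2% lower at 0 h and 19.9% and 20.6% at 3 h. The split turned on the TPM scale, to 4 higher and 8 lower at 0 h and 2 higher and 4 lower at 3 h. With quantile normalization it was 5 higher and 3 lower at 0 h and 3 and 3 at 3 h. The largest change was in Eprs (chr1:185363044-185428360, GRCm38), which charges both glutamate and proline transfer RNAs. Eprs stood at 7.75 and 8.72 FPKM in spermine at 3 h and 4.29 and 4.19 in PBS at 3 h, against 13.5 and 12.1 in spermine at 0 h and 5.60 and 5.50 in PBS at 0 h. Spermine libraries were above PBS libraries at each time without overlap, by a log2 change of 1.07 ± 0.09 (SE) at 0 h (adjusted p = 0.000161) and 0.82 ± 0.09 at 3 h (adjusted p = 0.000523).

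Nars, which charges asparagine transfer RNA, had 86.6 and 82.3 FPKM in spermine at 3 h and 57.3 and 56.8 in PBS at 3 h, against 99.3 and 92.9 in spermine at 0 h and 65.0 and 62.4 in PBS at 0 h. All spermine libraries lay above all PBS libraries (log2 changes of 0.58 ± 0.06 at 0 h and 0.56 ± 0.06 at 3 h, adjusted p = 0.000618 and 0.000777). Aars, for alanine, had 25.1 and 23.3 FPKM in spermine at 3 h and 18.2 and 19.8 in PBS at 3 h, against 19.8 and 20.8 in spermine at 0 h and 12.0 and 12.7 in PBS at 0 h. It was higher with spermine by 0.67 ± 0.08 at 0 h (adjusted p = 0.000672) and by 0.33 ± 0.08 at 3 h (adjusted p = 0.0131), and the call at 3 h was lost under 4 of 17 alternatives, with a change of 0.14 on the TPM scale. Of the Aars exon bases, 15.1% are shared with Exosc6 and Gm24103, and the strand of the libraries is not stated, so reads there cannot be assigned to one gene.

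The cysteine synthetase Cars was higher with spermine by 0.41 ± 0.07 at 0 h and 0.27 ± 0.07 at 3 h (adjusted p = 0.00364 and 0.0202). On the TPM scale neither call held, with changes of 0.12 and 0.10, and the call at 3 h was lost under 5 of 17 alternatives in all. At 0 h the arginine synthetase Rars rose by 0.87 ± 0.13 (adjusted p = 0.00198). The leucine and histidine synthetases rose by small amounts, Lars by 0.33 ± 0.09 and Hars by 0.30 ± 0.07 (adjusted p = 0.0263 and 0.0111). Neither call held on the TPM scale, where Lars changed by 0.01 and Hars by -0.03, and they were lost under 7 and 4 of 17 alternatives in all. Hars shares 7.97% of its exon bases with Hars2 on the other strand. At 3 h the serine synthetase Sars and the methionine synthetase Mars rose by 0.26 ± 0.06 and 0.21 ± 0.07 (adjusted p = 0.0131 and 0.0387), and on the TPM scale the changes were 0.07 and 0.03. The Sars call was lost under 6 of 17 alternatives, and the Mars call under 12, each of the 8 left-out libraries among them.

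The valine synthetase Vars went the other way at both times. It had 6.11 and 5.65 FPKM in spermine at 3 h and 7.54 and 9.55 in PBS at 3 h, against 4.55 and 5.05 in spermine at 0 h and 6.93 and 7.65 in PBS at 0 h. Every spermine library was below both PBS libraries of its time (-0.52 ± 0.12 at 0 h and -0.46 ± 0.12 at 3 h, adjusted p = 0.0123 and 0.0189). The call was lost under 2 of 17 alternatives at 0 h and 4 of 17 at 3 h, where the change was -0.31 without PBS 3 h replicate 2. Wars was lower with spermine at 3 h, by -0.34 ± 0.07 (adjusted p = 0.0105), while at 0 h its change of 0.02 ± 0.07 did not pass. The Wars call at 3 h was lost under 2 of 17 alternatives, with changes of -0.33 and -0.35.

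**Figure D2:**
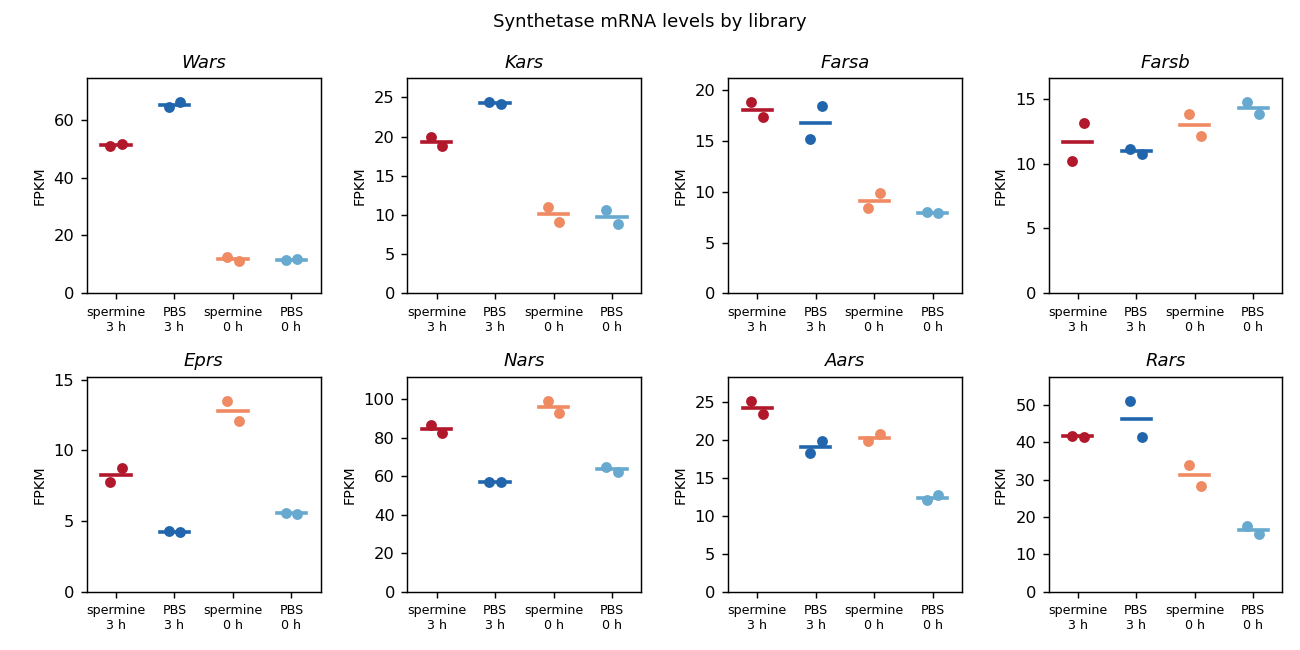
FPKM of 8 synthetases in each library (points) and the mean of each group (bars), in the order spermine 3 h, PBS 3 h, spermine 0 h and PBS 0 h. Wars, Kars and Farsa separate by time, Eprs and Nars by spermine, and Rars and Aars are lowest in PBS at 0 h.

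Among the enzymes, spermine raised Asns and Mthfd2 at 0 h and Asns at 3 h, and limma called none of the 7 tested lower, as did limma voom, with 0 lower at an unadjusted p under 0.05. Over all genes 22.0% were higher and 19.2% lower at 0 h, and 19.9% and 20.6% at 3 h. TPM rescaling gave 2 enzymes higher and 2 lower (Aldh18a1 and Psph) at 0 h, and 0 higher and 1 lower (Mthfd2, -0.38) at 3 h. Quantile normalization gave 3 higher and 0 lower at 0 h, and 0 higher and 0 lower at 3 h. Asns makes asparagine from aspartate and is a long-known ATF4 target. It had 12.2 and 13.7 FPKM in spermine at 3 h and 10.8 and 8.87 in PBS at 3 h, against 16.5 and 14.5 in spermine at 0 h and 8.75 and 8.18 in PBS at 0 h. The groups did not overlap at either time, but the gap at 3 h was smaller (0.36 ± 0.11, adjusted p = 0.0412) than at 0 h (0.80 ± 0.11, adjusted p = 0.0018), and the 3 h call was lost under 9 of 17 alternatives. Whether the 2 gaps differ is the difference of the IFN-β responses, which was -0.44 with a 95% interval of -0.82 to -0.05 and did not pass after adjustment (adjusted p = 0.125).

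Mthfd2 (chr6:83305691-83325908) is the mitochondrial folate enzyme that oxidises the one-carbon units taken from serine. At 0 h it had 16.2 and 15.6 FPKM with spermine, against 6.52 and 5.75 with PBS, a log2 change of 1.24 ± 0.09 (adjusted p = 0.000105). The serine enzymes that act before it did not pass in any of the 5 comparisons. Phgdh, which opens serine synthesis, changed by 0.24 ± 0.12 at 0 h and 0.33 ± 0.12 at 3 h, Psat1 by 0.20 ± 0.09 and 0.06 ± 0.09, Psph by -0.12 ± 0.11 and -0.04 ± 0.11, and the mitochondrial serine hydroxymethyltransferase Shmt2 by 0.08 ± 0.11 and 0.15 ± 0.11. The proline enzyme Aldh18a1 changed by -0.19 ± 0.10 and -0.05 ± 0.10. Psph shares 10.4% of its exon bases with Cct6a on the other strand.

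Pycr1, the last enzyme of proline synthesis, was near the floor of detection. It had 9 and 10 reads in spermine at 3 h and 0 and 1 in PBS at 3 h, against 25 and 28 in spermine at 0 h and 16 and 6 in PBS at 0 h. It was left untested.

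Of the 7 transporters, spermine raised 5 at 0 h and 3 at 3 h, where 22.0% and 19.9% of all genes were higher. Limma called none of the transporters lower (all genes: 19.2% and 20.6%). At an unadjusted p under 0.05, 2 were lower at 0 h and 0 at 3 h. Limma voom called 1 lower at 0 h (Slc1a5) and 0 at 3 h. On the TPM scale 5 were higher and 2 lower at 0 h, and 2 higher and 0 lower at 3 h. Quantile normalization gave 5 higher and 1 lower at 0 h, and 3 higher and 0 lower at 3 h. Slc3a2 (chr19:8706882-8723369) is the CD98 heavy chain that carries light chains such as Slc7a5, Slc7a6, Slc7a7, Slc7a8 and Slc7a11 to the cell surface. It had 354.6 and 319.8 FPKM in spermine at 3 h and 134.1 and 145.4 in PBS at 3 h, against 235.5 and 273.0 in spermine at 0 h and 93.2 and 97.5 in PBS at 0 h. Each spermine library exceeded every PBS library, and the log2 change was 1.40 ± 0.09 at 0 h (adjusted p = 8.02e-05) and 1.26 ± 0.09 at 3 h (adjusted p = 0.000134). Slc38a2 (chr15:96687392-96699730), a sodium-coupled importer of small neutral amino acids, had 32.2 and 33.3 FPKM in spermine at 3 h and 13.4 and 10.5 in PBS at 3 h, against 46.5 and 42.1 in spermine at 0 h and 19.4 and 18.6 in PBS at 0 h. It too was above every PBS library in each spermine library, with log2 changes of 1.18 ± 0.11 at 0 h and 1.39 ± 0.11 at 3 h (adjusted p = 0.000334 and 0.000182). For Slc3a2 and Slc38a2 both calls held under all 17 alternatives.

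Slc7a1, the main importer of arginine and lysine in many cells, had 3.02 and 2.40 FPKM in spermine at 3 h and 1.88 and 1.96 in PBS at 3 h, against 4.85 and 4.63 in spermine at 0 h and 2.30 and 2.38 in PBS at 0 h. It was higher with spermine by 0.78 ± 0.10 at 0 h and 0.34 ± 0.10 at 3 h (adjusted p = 0.00113 and 0.0321), and the call at 3 h was lost under 8 of 17 alternatives. At 0 h Slc7a5, the LAT1 light chain that imports large neutral amino acids, stood at 5.06 and 4.45 FPKM with spermine, against 2.27 and 2.84 with PBS (0.70 ± 0.13, adjusted p = 0.00474). Slc1a4, an exchanger of alanine, serine and cysteine, stood at 0.984 and 1.20 FPKM with spermine, against 0.445 and 0.556 with PBS (0.48 ± 0.12, adjusted p = 0.0204). The Slc1a4 call was lost under 4 of 16 alternatives. At 3 h neither Slc7a5 nor Slc1a4 passed. The glutamine exchanger Slc1a5 and the light chain Slc7a6 did not pass at either time, with changes of -0.29 ± 0.11 and -0.24 ± 0.10 at 0 h and 0.28 ± 0.11 and 0.01 ± 0.10 at 3 h.

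**Figure D3:**
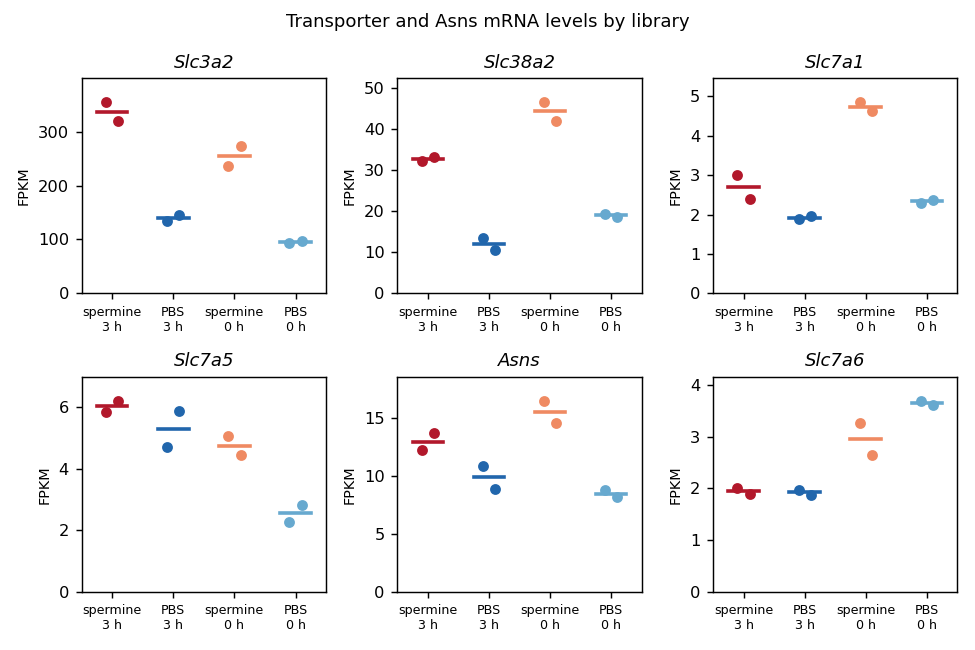
FPKM of 5 transporters and Asns in each library (points) and the mean of each group (bars), in the order spermine 3 h, PBS 3 h, spermine 0 h and PBS 0 h. For Slc3a2, Slc38a2, Slc7a1 and Asns the spermine points lie above the PBS points of the same time, while Slc7a6 is lower at 3 h than at 0 h in both treatments.

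The heavy chain changed relative to its partners as well. Slc3a2 over the summed FPKM of the 5 light chains was 1.89 and 1.64 in spermine at 3 h and 0.836 and 0.865 in PBS at 3 h, against 1.62 and 2.07 in spermine at 0 h and 1.01 and 1.05 in PBS at 0 h. A ratio within a library does not depend on the scaling, and it was higher in every spermine library than in every PBS library. Slc7a11, the cystine importer, made up 13.7% and 12.8% of the light chain sum in spermine at 3 h and 0.745% and 0.574% in PBS at 3 h, against 30.2% and 28.1% in spermine at 0 h and 2.49% and 2.35% in PBS at 0 h. The remainder was mostly Slc7a8, at 149.5 and 157.7 FPKM in spermine at 3 h and 148.9 and 155.6 in PBS at 3 h, against 89.2 and 84.1 in spermine at 0 h and 78.8 and 79.5 in PBS at 0 h.

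**Figure D4:**
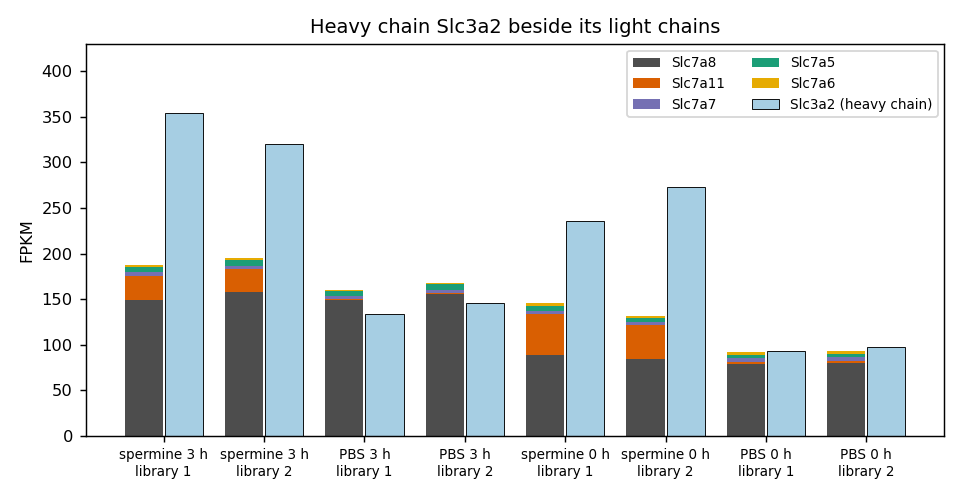
FPKM of the heavy chain Slc3a2 (pale blue bar) beside the stacked FPKM of 5 light chains in each library, spermine before PBS at each time. The heavy chain bar exceeds the light chain stack in the 4 spermine libraries and is close to it in the 4 PBS libraries; the Slc7a11 segment is visible mainly with spermine.

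A list of 22 genes of amino acid shortage sensing and the ATF4 pathway, chosen with earlier results of these data known, was also looked at. Of these, 20 were tested. With spermine 12 were higher and 2 lower at 0 h (all genes: 22.0% and 19.2%). At 3 h 12 were higher and 1 lower (all genes: 19.9% and 20.6%). The medians were 1.01 and 1.36, against 0.01 and -0.00 over all genes. On the TPM scale the split was 11 higher and 5 lower at 0 h, and 12 and 3 at 3 h. With quantile normalization it was 12 and 2 at 0 h, and 13 and 1 at 3 h. Atf4 mRNA stood at 164.1 and 169.6 FPKM in spermine at 3 h and 48.1 and 48.2 in PBS at 3 h, against 167.0 and 166.8 in spermine at 0 h and 56.0 and 49.0 in PBS at 0 h. It was higher in every spermine library, by 1.65 ± 0.07 at 0 h and 1.77 ± 0.07 at 3 h (adjusted p = 1.94e-05 and 1.39e-05). At 0 h and 3 h with spermine the ATF4 target Ddit3 (CHOP) rose by 1.10 and 1.79, and the pseudokinase Trib3 by 1.44 and 1.86. The leucine sensor Sesn2 rose by 1.08 and 1.38, Slc7a11 by 3.68 and 3.66, and the glutathione-degrading Chac1 by 1.60 and 1.37. Chac1 lay at 0.347 to 0.681 FPKM in the PBS libraries. It therefore passed the filter, and entered the counts above, through the spermine libraries alone. Eif2ak4, the uncharged tRNA sensor, rose by 0.48 ± 0.08 at 0 h (adjusted p = 0.0028), a call lost on the TPM scale at 0.22, and its change of 0.23 ± 0.08 at 3 h did not pass (adjusted p = 0.0531). The kinase Eif2ak2, which senses double-stranded RNA and reaches the same pathway, changed with spermine by -0.45 at 0 h and -0.69 at 3 h, and both passed. With IFN-β 4 of the 20 were higher and 9 lower in PBS (all genes: 24.6% and 25.0%). Eif2ak2 was among the higher, and Ddit3, Sesn2, Slc7a11 and Eif2ak4 among the lower. In spermine 4 were higher and 4 lower (all genes: 19.7% and 22.1%). The medians were -0.24 in PBS and 0.03 in spermine. TPM rescaling gave 2 higher and 12 lower in PBS, and 2 and 9 in spermine.

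Because ATF4 binds with C/EBP partners to a composite element, the members' promoters were searched for it in RefSeq windows on GRCm38.p6, from 250 bases before to 50 after each start. Windows were found for 26 of the 35 members (29 windows), and Cars, Hars, Lars, Nars, Rars, Vars, Wars, Slc7a5 and Slc1a5 are named only. The letters TGATGNAA, searched on both strands, occurred in 8 of the 26 genes and in 3.97% of all 32851 promoter windows. In the short stretches below, chosen because they hold the element and after the values were seen, capitals mark the match, the number is the position of its first base from the start, and each is written on the strand of its gene.
Aars (10): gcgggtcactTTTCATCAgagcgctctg
Gars (-30): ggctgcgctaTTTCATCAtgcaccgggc
Iars (8): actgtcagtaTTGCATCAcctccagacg
Tars (-15): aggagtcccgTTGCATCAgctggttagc
Yars (4): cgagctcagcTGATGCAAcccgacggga
Pycr1 (-103): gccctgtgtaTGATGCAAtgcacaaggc
Slc1a4 (-4): gcctcctgcgTTGCATCAtctccagcct

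Whole windows are shown for members that rose with spermine at 0 h, with the element in capitals where it occurs.
Asns (chr6:7693160-7693459, minus strand): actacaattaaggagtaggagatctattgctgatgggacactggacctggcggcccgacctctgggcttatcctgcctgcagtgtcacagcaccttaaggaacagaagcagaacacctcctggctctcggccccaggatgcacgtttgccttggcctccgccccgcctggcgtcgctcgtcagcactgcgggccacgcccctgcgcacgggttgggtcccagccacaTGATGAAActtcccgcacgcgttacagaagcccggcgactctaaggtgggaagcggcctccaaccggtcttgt
Eprs (chr1:185362794-185363093, plus strand): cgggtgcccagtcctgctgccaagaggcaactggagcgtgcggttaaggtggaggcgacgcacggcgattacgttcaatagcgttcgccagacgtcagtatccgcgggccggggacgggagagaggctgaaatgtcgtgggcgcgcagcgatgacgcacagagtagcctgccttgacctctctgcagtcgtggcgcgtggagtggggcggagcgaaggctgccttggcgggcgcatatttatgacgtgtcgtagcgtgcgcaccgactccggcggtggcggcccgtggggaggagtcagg
Mthfd2 (chr6:83317555-83317854, minus strand): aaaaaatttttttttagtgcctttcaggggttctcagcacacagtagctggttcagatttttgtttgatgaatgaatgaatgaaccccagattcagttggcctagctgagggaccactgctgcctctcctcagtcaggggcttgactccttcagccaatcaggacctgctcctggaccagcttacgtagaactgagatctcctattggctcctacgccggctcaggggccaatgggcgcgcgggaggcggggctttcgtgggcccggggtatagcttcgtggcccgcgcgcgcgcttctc
Slc3a2 (chr19:8713848-8714147, minus strand): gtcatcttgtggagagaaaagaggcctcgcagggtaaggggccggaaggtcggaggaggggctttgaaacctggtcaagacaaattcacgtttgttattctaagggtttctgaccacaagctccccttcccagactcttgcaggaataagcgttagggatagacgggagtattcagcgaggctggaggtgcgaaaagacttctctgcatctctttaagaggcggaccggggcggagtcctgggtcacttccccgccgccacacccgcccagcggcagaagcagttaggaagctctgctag

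Asns holds TGATGAAA at position -23, and no such match lies in the windows of Eprs, Mthfd2 and Slc3a2, nor in those of Slc38a2, Slc7a1 and Kars. The RefSeq starts of Mthfd2 and Slc3a2 lie inside the longer gene records of the deposited table, so other starts of these genes were not covered. Of the 7 tested members with the element 3 were higher with spermine at 0 h (Aars, Asns and Slc1a4), as were 5 of the 18 tested members whose windows lack it. The share over all tested genes was 22.0%. A match is a string of letters and not a site shown to be bound. The cyclic AMP response element (TGACGTCA) occurred in 0 of the 26 genes and 1.79% of all windows, the core of the interferon-stimulated response element (GAAANNGAA) in Qars and 8.56%, the gamma-activated site (TTCNNNGAA) in 5 genes and 8.30%, and the E-box (CACGTG) in 5 genes and 7.15%. The 5 genes with a match to the gamma-activated site were Aars (position -88), Kars (-9), Shmt2 (-55), Aldh18a1 (-154 and -39) and Slc7a1 (-146). Whether these matches bear on the IFN-β changes was not tested.

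After 3 h of IFN-β the members moved in both directions. In PBS 11 were higher and 8 lower than at 0 h, where 24.6% of all tested genes were higher and 25.0% lower, with medians of 0.13 for the members and -0.02 for all genes. In spermine 7 were higher and 6 lower, where 19.7% of all tested genes were higher and 22.1% lower, with medians of 0.01 and -0.01. The PBS 0 h libraries serve in both the spermine comparison at 0 h and the IFN-β comparison in PBS, so the 2 comparisons are not independent. On the TPM scale the median of all genes moved by -0.46 in PBS and -0.33 in spermine, and the members split into 7 higher and 18 lower in PBS and 3 higher and 17 lower in spermine. With quantile normalization the split was 8 higher and 10 lower in PBS and 4 higher and 10 lower in spermine.

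Wars (chr12:108860030-108894174) had the largest IFN-β change of the members in both treatments. It had 50.8 and 51.7 FPKM in spermine at 3 h, against 12.6 and 11.1 in spermine at 0 h, and 64.4 and 66.0 FPKM in PBS at 3 h, against 11.5 and 11.8 in PBS at 0 h. The log2 change was 2.03 ± 0.07 in spermine and 2.39 ± 0.07 in PBS (adjusted p = 1.51e-06 and 5.13e-07), and the difference of -0.36, with a 95% interval of -0.61 to -0.11, did not pass (adjusted p = 0.0661). Kars, which charges lysine transfer RNA and also makes the signalling molecule Ap4A, had 19.9 and 18.8 FPKM in spermine at 3 h, against 11.0 and 9.11 in spermine at 0 h, and 24.4 and 24.2 in PBS at 3 h, against 10.7 and 8.83 in PBS at 0 h. It rose by 0.88 ± 0.11 in spermine and 1.24 ± 0.11 in PBS (adjusted p = 0.000971 and 0.000117).

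The 2 subunits of the phenylalanine synthetase did not move together. Farsa, the alpha subunit, had 18.8 and 17.3 FPKM in spermine at 3 h, against 8.36 and 9.91 in spermine at 0 h, and 15.2 and 18.5 in PBS at 3 h, against 7.98 and 7.88 in PBS at 0 h (0.92 ± 0.12 in spermine and 0.99 ± 0.12 in PBS, adjusted p = 0.000863 and 0.000386). Farsb, the beta subunit, fell by 0.35 in PBS (SE 0.12, adjusted p = 0.0465) and changed by -0.15 ± 0.12 in spermine, and the PBS call was lost under 9 of 17 alternatives. Farsa over Farsb was 1.84 and 1.32 in spermine at 3 h and 1.36 and 1.73 in PBS at 3 h, against 0.606 and 0.818 in spermine at 0 h and 0.542 and 0.571 in PBS at 0 h. The ratio was above 1 in the 4 libraries at 3 h and below 1 in the 4 at 0 h. Farsb shares 9.47% of its exon bases with Sgpp2 on the other strand.

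Of the other synthetases, Rars rose by 0.41 ± 0.13 in spermine and 1.43 ± 0.13 in PBS (adjusted p = 0.0383 and 9.99e-05), and the call in spermine was lost under 8 of 18 alternatives. Aars rose by 0.24 ± 0.08 in spermine and 0.59 ± 0.08 in PBS (adjusted p = 0.0389 and 0.000663), and on the TPM scale its change was -0.08 in spermine and 0.15 in PBS. The call in spermine was lost under 11 of 18 alternatives. In PBS, Gars rose by 0.39 ± 0.12 and Hars by 0.30 ± 0.07 (adjusted p = 0.0325 and 0.00859), but their changes on the TPM scale were -0.07 and -0.16, and the calls were lost under 9 and 3 of 17 alternatives. The synthetases for isoleucine and aspartate, Iars and Dars, were lower at 3 h in both treatments: Iars by log2 changes of -0.47 in spermine and -0.43 in PBS, and Dars by -0.29 and -0.27. The Iars calls held under all alternatives, but the Dars call was lost under 7 of 18 in spermine and 9 of 17 in PBS. Eprs was lower by -0.58 in spermine and -0.32 in PBS, and in PBS Mars and Sars were lower by -0.48 and -0.33. The Eprs call in PBS was lost under 4 of 17 alternatives. Eprs, Lars, Iars, Mars, Qars, Rars, Kars and Dars are the synthetases of the cytosolic multi-synthetase complex. Of these 8, 2 rose and 3 fell in spermine (all genes: 19.7% and 22.1%), and 2 rose and 4 fell in PBS (all genes: 24.6% and 25.0%). The TPM scale gave 1 higher and 6 lower in spermine, and 2 higher and 5 lower in PBS.

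Among the enzymes Mthfd2 alone of the 7 tested passed with IFN-β, and did so in PBS (1.56 ± 0.09, adjusted p = 1.13e-05), while in spermine its change was 0.14 ± 0.09, and limma, limma voom and an unadjusted p under 0.05 each gave 0 of the 7. TPM rescaling made 2 enzymes lower in spermine (Asns and Phgdh) and 3 in PBS, and with quantile normalization Asns was lower in spermine. Over all genes limma called 19.7% higher and 22.1% lower in spermine, and 24.6% higher and 25.0% lower in PBS. Among the transporters Slc3a2 rose by 0.41 ± 0.09 in spermine and 0.55 ± 0.09 in PBS (adjusted p = 0.013 and 0.00271), although with quantile normalization these changes became -0.21 and -0.11. Slc38a2 fell by 0.42 in spermine and fell by 0.63 in PBS (SE 0.11 each, adjusted p = 0.022 and 0.00306). Slc7a6 had 2.00 and 1.89 FPKM in spermine at 3 h, against 3.26 and 2.65 in spermine at 0 h, and 1.98 and 1.87 in PBS at 3 h, against 3.70 and 3.62 in PBS at 0 h, so the 4 libraries at 3 h lay close together and below those at 0 h (-0.42 ± 0.10 and -0.67 ± 0.10, adjusted p = 0.0134 and 0.00121). The Slc38a2 and Slc7a6 calls in spermine were lost under 4 and 3 of 18 alternatives. In PBS, Slc7a5 rose by 0.82 ± 0.13 and Slc1a4 by 0.68 ± 0.12 (adjusted p = 0.00145 and 0.00342). In spermine Slc7a1 fell by 0.63 and Slc1a5 rose by 0.44 ± 0.11 (adjusted p = 0.00241 and 0.0153), and on the TPM scale the Slc1a5 change of 0.15 did not pass.

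Whether the change with IFN-β was unequal in the 2 treatments was tested by subtracting the PBS response from the spermine response. Of the 34 members 1 was higher and 3 were lower, where 5.82% of all tested genes were higher and 7.75% lower, and the members' median was -0.10 against -0.02. On the TPM scale, which moved the median of all genes by 0.14, 2 were higher and 3 lower, and with quantile normalization 2 were higher and 2 lower. Mthfd2 had 17.3 and 17.8 FPKM in spermine at 3 h and 21.4 and 18.7 in PBS at 3 h, against 16.2 and 15.6 in spermine at 0 h and 6.52 and 5.75 in PBS at 0 h. The PBS 0 h libraries stood apart from the other 6, and the difference was -1.42 ± 0.13 (adjusted p = 0.00219), which held under all 16 alternatives. Rars showed the same order of groups, with 41.7 and 41.5 FPKM in spermine at 3 h and 51.2 and 41.5 in PBS at 3 h, against 33.9 and 28.4 in spermine at 0 h and 17.6 and 15.5 in PBS at 0 h. Its difference was -1.02 ± 0.18 (adjusted p = 0.0151), and it was lost in 3 of 16 alternatives, each of which left out a library.

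Slc1a4 had 0.946 and 1.15 FPKM in spermine at 3 h and 1.26 and 1.56 in PBS at 3 h, against the values at 0 h given above, a difference of -0.71 ± 0.18 (adjusted p = 0.042) that was lost under 10 of 15 alternatives. It rests on as few as 40 reads in a library. Mars went the other way: it had 9.01 and 9.46 FPKM in spermine at 3 h and 7.79 and 7.88 in PBS at 3 h, against 10.2 and 10.1 in spermine at 0 h and 11.1 and 11.6 in PBS at 0 h. Its difference of 0.36 ± 0.09 (adjusted p = 0.0477) was lost under 13 of 16 alternatives, and 1.99% of its exon bases are shared with Ddit3 on the other strand, whose own difference was 0.69 ± 0.13. The responses of Slc1a5 (0.57, 95% interval 0.21 to 0.93, adjusted p = 0.0533) and Slc7a5 (-0.53, 95% interval -0.96 to -0.11, adjusted p = 0.0974) did not pass.

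**Figure D5:**
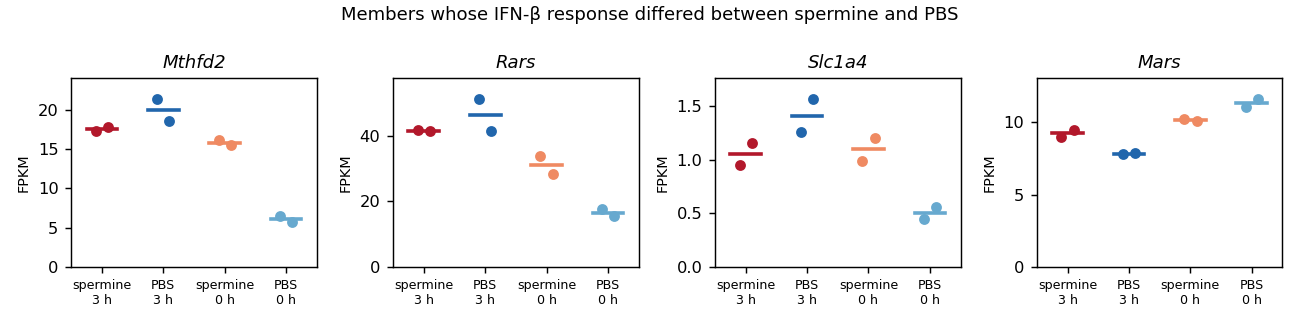
FPKM in each library (points) and group mean (bars) of the 4 members whose IFN-β responses were called as differing between treatments. Groups are in the order spermine 3 h, PBS 3 h, spermine 0 h and PBS 0 h. For Mthfd2, Rars and Slc1a4 the PBS 0 h libraries are the lowest, and for Mars the PBS 3 h libraries are.

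The synthetases of mitochondria, which are separate nuclear genes except for the few that serve both compartments, were taken as a comparison. Of 17 listed, 14 passed the filter. With spermine 1 was higher and 6 lower at 0 h, with a median of -0.35, and 2 were higher and 5 lower at 3 h, with a median of -0.20. The cytosolic members had medians of 0.10 and 0.07. Pars2 and Cars2 were counted as lower at 0 h, and Pars2 also at 3 h. In the spermine libraries Pars2 lay at 0.138 to 0.742 FPKM and Cars2 at 0.734 to 0.927. They therefore passed the filter through PBS libraries alone, and the counts and medians include them. Among all genes 22.0% were higher and 19.2% lower at 0 h, and 19.9% and 20.6% at 3 h, with medians of 0.01 and -0.00. Both lists had negative medians on the TPM scale, -0.78 and -0.43 for the mitochondrial and -0.23 and -0.13 for the cytosolic synthetases. Hars2, Pars2 and Vars2 were lower at both times, with log2 changes of -0.53, -0.56 and -0.56 at 0 h and -0.75, -0.73 and -0.38 at 3 h. Fars2, for phenylalanine, was higher at both times, by 0.79 ± 0.10 and 0.59 ± 0.10. On the TPM scale 1 mitochondrial synthetase was higher and 11 lower at 0 h, and 1 was higher and 8 lower at 3 h. The cytosolic synthetases had 4 higher and 8 lower at 0 h on that scale, and 2 higher and 4 lower at 3 h. With IFN-β 1 was higher and 1 lower in spermine, and 1 higher and 0 lower in PBS by limma, where 1 was lower at an unadjusted p under 0.05 and 1 was lower by limma voom. The shares over all genes were 19.7% higher and 22.1% lower in spermine, and 24.6% and 25.0% in PBS. TPM rescaling gave 1 mitochondrial synthetase higher and 4 lower in spermine, and 0 higher and 9 lower in PBS.

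Qars, Tars, Yars, Phgdh, Psat1, Psph, Shmt2 and Aldh18a1 passed in none of the 5 comparisons in limma. Of their 40 tests 2 had an unadjusted p under 0.05, for Phgdh and Tars, and limma voom called 0. Each was called in at least 1 comparison on another scale. On the TPM scale Qars, Yars, Aldh18a1 and Psph were lower with spermine at 0 h (-0.45, -0.37, -0.55 and -0.46) and Tars at 3 h (-0.38), and Shmt2 and Phgdh were lower with IFN-β in PBS (-0.42 and -0.69). With quantile normalization Psat1 was higher with spermine at 0 h (0.30). Qars, for glutamine, lay between 14.5 and 16.6 FPKM in all 8 libraries, Tars, for threonine, between 6.49 and 7.78, and Yars, for tyrosine, between 3.40 and 4.31.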

How the data were processed

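The deposited table gives FPKM for 54532 genes in 8 libraries. Per the submitters' processing notes, the builds were GRCm38 and mm10 and the tools included HISAT2 2.0.5, fastp, CASAVA 1.8, DESeq2 1.20.0 and featureCounts 1.5.0-p3, with no role or order stated. Library strand and the handling of multi-mapping reads are not given there. Multiplying FPKM by the deposited gene length gave whole steps for 100% of values, to within 0.001 of a read, so reads were rebuilt.

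Log2(FPKM + 1) of the 11421 genes reaching an FPKM of 1 in 2 or more libraries was fitted with limma 3.58.1 (R 4.3.3) as 4 group means with an intensity trend (4 residual and 2.83 prior degrees of freedom). Tests are two-sided, adjusted by Benjamini-Hochberg over every tested gene, and an adjusted p under 0.05 is a call. Fold changes on this scale understate low genes. The code was tested on simulated data.

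Alternatives were TPM rescaling, quantile normalization, a pseudocount of 0.1, no filter, an FPKM of at least 1 in all libraries, limma voom on rebuilt reads, no intensity trend, the compared groups alone, a replicate block, and leaving out each library; a crossed block was chosen after seeing the data. Members and lists were chosen with earlier results of these data known. Each member is named or counted, and a few listed genes and 1 sequence are not reported here. Of other genes, Atf4, Ddit3, Trib3, Chac1, Sesn2, Eif2ak4 and Slc7a11 are always named, and up to 3 called genes per list and comparison by size. Overlaps come from GENCODE M21 and promoters from RefSeq (GRCm38.p6). Python 3.11.15, numpy 2.4.6, pandas 2.3.3 and matplotlib 3.10.9 were used.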

Additional observations from a re-analysis of the deposited data

Results flagged for a closer look

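Each of the following genes was called in limma's test of the difference between the IFN-β responses (spermine minus PBS, adjusted p under 0.05). Among the members the difference was -1.42 for Mthfd2, -1.02 for Rars, -0.71 for Slc1a4 and 0.36 for Mars. Only the Mthfd2 call held under all alternatives. The calls of Rars, Slc1a4 and Mars were lost under 3 of 16, 10 of 15 and 13 of 16. How far the calls below held under the alternatives is not given here. In the ATF4 pathway it was 1.24 for Ddit4, a brake on mTORC1, 0.69 for Ddit3 and 0.55 for Atf3. Trnt1, which adds the CCA end to transfer RNAs, differed by -0.87. Its levels were 7.47 and 8.05 FPKM in spermine at 3 h and 10.7 and 8.68 in PBS at 3 h, against 10.0 and 8.77 in spermine at 0 h and 5.99 and 5.84 in PBS at 0 h, so the PBS 0 h libraries were the lowest. Of the amino acid arm of mTORC1, Sesn1 differed by 1.92 and the arginine-sensing family member Castor2 by 0.65. The mitochondrial PEP carboxykinase Pck2 differed by 0.85. Of the transporters outside the members, Slc36a1 differed by 0.78, Slc16a10 by 0.62, Slc7a7 by 0.52 and Slc43a2 by 0.37.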

How the results depend on the processing

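Of 63 called changes of members, 33 kept direction and call under every alternative run for them and 30 lost the call under at least 1. The number of members called stayed within 1.5 times for every other setting, but at 0 h it was 23 with TPM rescaling against 15 for spermine over PBS. At 3 h it was 7 against 12 when only the compared groups were fitted. With IFN-β in spermine it was 20 against 13 with TPM rescaling, and for the difference of the responses 2 against 4 without the filter. Leaving out 1 library gave 11 to 16 members for spermine over PBS at 0 h and 4 to 12 at 3 h, 14 to 18 with IFN-β in PBS, 6 to 13 with IFN-β in spermine, and 1 to 4 for the difference. At 3 h the count was 4 without spermine replicate 1 and 6 without spermine replicate 2. With IFN-β in spermine it was 6 and 7 without the same 2 libraries and 7 without spermine 0 h replicate 1. For the difference it was 1 without PBS 0 h replicate 2 or either spermine 3 h library, and 2 without spermine 0 h replicate 1, PBS 0 h replicate 1 or PBS 3 h replicate 1.

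Among changes called on either scale, TPM rescaling turned the sign, for spermine over PBS at 0 h, of Wars (-0.32), Hars (-0.03), Sars (-0.26) and Iars (-0.32), and, with IFN-β in PBS, of Gars (-0.07), Hars (-0.16), Tars (-0.31), Shmt2 (-0.42), Cars (-0.32) and Aldh18a1 (-0.39), and, with IFN-β in spermine, of Aars (-0.08) and Qars (-0.28). Quantile normalization turned, with IFN-β in PBS, Slc3a2 (-0.11), Hars (-0.01) and Atf3 (-0.13), and Slc3a2 in spermine (-0.21). Of the members not called, the sign on the TPM scale was opposite for 11 of 19 at 0 h and 12 of 22 at 3 h for spermine over PBS, 9 of 15 with IFN-β in PBS and 8 of 21 in spermine, and 4 of 30 for the difference. The cause of these turns was not tested beyond the shift of all genes under TPM given above.

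The labels number the libraries BM1 and BM2 in each group without saying what a number shares. Over 11421 genes the deviations of same-numbered libraries from their group means correlated at 0.246 between spermine 0 h and PBS 0 h, -0.089 between spermine 3 h and PBS 3 h, 0.229 between PBS 3 h and PBS 0 h and -0.126 between spermine 3 h and spermine 0 h. The correlation was 0.371 between spermine 0 h and PBS 3 h, and -0.061 between PBS 0 h and spermine 3 h. Every pair with spermine 3 h was therefore negative. With 2 numbers per group these do not settle a pairing. With a replicate block the members called were 16 and 14 for spermine over PBS at 0 h and 3 h, 18 and 14 for IFN-β in PBS and in spermine, and 5 for the difference, and with crossed numbers 17 for IFN-β in spermine. With 2 libraries a group, changes of low genes were limited by depth, as for Pycr1, with 0 to 28 reads a library, and Slc1a4, with as few as 40.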

Other observations

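Other amino acid transporters, 12 of 14 tested, were more often lower than higher with IFN-β. In spermine 2 rose and 7 fell (all genes: 19.7% and 22.1%), and in PBS 2 rose and 7 fell (all genes: 24.6% and 25.0%). On the TPM scale 2 rose and 8 fell in spermine, and 2 rose and 9 fell in PBS. Slc36a1, a lysosomal amino acid exporter, had 3.11 and 3.32 FPKM in spermine at 3 h and 3.50 and 3.93 in PBS at 3 h, against 9.99 and 9.34 in spermine at 0 h and 19.9 and 19.0 in PBS at 0 h. Its levels at 3 h lay below all levels at 0 h. Slc43a2, a carrier of large neutral amino acids, changed by -0.96 in spermine and -1.33 in PBS. Slc7a2, the cationic amino acid carrier that feeds arginine to nitric oxide synthesis in macrophages, had 2.24 and 2.19 FPKM in spermine at 3 h and 5.80 and 5.17 in PBS at 3 h, against 1.09 and 0.951 in spermine at 0 h and 2.15 and 2.18 in PBS at 0 h. It was higher at 3 h in both treatments and lower with spermine at both times (-0.65 at 0 h and -1.01 at 3 h), where the member Slc7a1, a carrier of the same amino acids, was higher. The glycine transporter Slc6a9 rose with spermine by 1.83 at 0 h and 1.15 at 3 h.

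Among 10 tested genes of amino acid synthesis and breakdown outside the members, spermine raised 4 and lowered 2 at 0 h and raised 4 and lowered 0 at 3 h by limma, with 0 lower at an unadjusted p under 0.05 and 0 by limma voom. On the TPM scale the direction turned at 0 h, to 1 higher and 3 lower, and at 3 h 3 were higher and 1 lower. On the deposited scale 22.0% of all genes were higher and 19.2% lower at 0 h, and 19.9% and 20.6% at 3 h. Glul, which makes glutamine, had 61.3 and 58.9 FPKM in spermine at 3 h and 23.2 and 24.5 in PBS at 3 h, against 139.1 and 142.4 in spermine at 0 h and 64.1 and 69.1 in PBS at 0 h. It was higher with spermine and lower at 3 h in every pair of groups. In the amino acid arm of mTORC1, Sesn1 had 1.27 and 1.25 FPKM in spermine at 3 h and 2.57 and 2.19 in PBS at 3 h, against 2.82 and 2.98 in spermine at 0 h and 21.8 and 20.1 in PBS at 0 h, so the PBS 0 h libraries stood apart from the rest.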
